A study of Mus musculus with 4 samples.

Results

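The Msx genes are a family of 3 in the mouse, Msx1, Msx2 and Msx3, and each was found by its symbol in the deposited table, 3 rows of 52459. The tissue was the embryonic first pharyngeal arch, from which the jaws and teeth form, and its RNA was sequenced at E9.5 to E9.75 (25 to 27 somites). The 2 groups were Wnt1-Cre;pMes-Bmp4, in which Cre recombinase driven by Wnt1 sequences acts in the neural crest lineage and turns on a Bmp4 transgene, and wild-type. There were 2 libraries in each group, numbered 1 and 2. The labels do not say whether these came from separate embryos, litters or pools, so the spread behind each p-value is that between these libraries and may be technical. Neither allele was sequenced without the other, so effects of the Bmp4 transgene cannot be told apart from effects of Cre or of genetic background.

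Msx proteins are homeodomain transcription factors that mostly repress transcription. Their genes are among the best known transcriptional targets of BMP signalling: ligands such as BMP4 bind type I and type II receptors, the receptors phosphorylate SMAD1, SMAD5 and SMAD9, and these enter the nucleus with SMAD4. In the mouse jaw, Msx1 and Msx2 are made in distal neural crest mesenchyme, and Msx1 is required in the dental mesenchyme for tooth formation beyond the bud stage. Msx3 is known in the mouse from the dorsal neural tube.

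All 3 genes lie on the minus strand and have 2 exons in their longest coding transcript. In GRCm38, the assembly that mm10 names, Msx1 lies on chromosome 5 at 37820485 to 37824583, Msx2 on chromosome 13 at 53466884 to 53473074, and Msx3 on chromosome 7 at 140046157 to 140049089. None was overlapped by another gene in GENCODE M21. No run of 50 bases was shared between the transcripts of any pair of members (0 shared runs), which bears on whether reads of related copies could be counted for the wrong gene. Read length and the handling of multiply mapped reads: not given in the sources used here.

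Upstream sequences are shown for a member that was higher and for the member at or near 0. They are the 250 bases before the RefSeq start of Msx1 (chr5:37824586-37824835) and of Msx3 (chr7:140049089-140049338), on the minus strand of GRCm38.p6, with motif matches in capitals.
Msx1 upstream: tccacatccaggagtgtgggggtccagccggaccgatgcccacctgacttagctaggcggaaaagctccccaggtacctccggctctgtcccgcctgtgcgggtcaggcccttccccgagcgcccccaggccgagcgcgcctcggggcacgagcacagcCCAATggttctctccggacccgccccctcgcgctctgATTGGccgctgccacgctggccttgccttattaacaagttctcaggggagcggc
Msx3 upstream: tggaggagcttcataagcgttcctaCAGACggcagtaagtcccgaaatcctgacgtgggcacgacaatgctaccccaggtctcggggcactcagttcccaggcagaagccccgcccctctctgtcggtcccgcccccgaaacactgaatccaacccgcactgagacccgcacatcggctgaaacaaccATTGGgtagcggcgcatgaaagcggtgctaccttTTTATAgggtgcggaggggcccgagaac

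The motifs searched on both strands were the SMAD-binding letters GGCGCC, GTCTAGAC and CAGAC, the TATA box TATAAA, the homeodomain site TAATTG and the CCAAT box. CCAAT was found in the windows of all 3 Msx genes, at 91 and 54 bases before the start of Msx1, 124 before that of Msx2 and 62 before that of Msx3, and in 33.8% of 32851 mouse windows. CAGAC, held by 42.2% of windows, and TATAAA, held by 12.4%, were found in Msx3 and in neither of the others. GGCGCC, GTCTAGAC and TAATTG, held by 9.59%, 0.167% and 7.17% of windows, had no match in the 3 windows. The window of Msx2 is not shown, since the RefSeq start lies 294 bases inside the first exon of the GENCODE transcript. The whole window thus lies after the GENCODE start. Its CCAAT match and its lack of other matches are therefore not upstream of that start.

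Library totals ran from 29607541 to 31404494 reads in Wnt1-Cre;pMes-Bmp4 and from 33763574 to 47849092 in wild-type, and every value was a whole number of reads divided by 1 size factor per library, called normalized reads here. Genes with a mean of at least 10 were compared with limma on log2(value + 1), and a gene is called higher or lower where its p, adjusted over all genes tested by the Benjamini-Hochberg method, was under 0.05. Of 16746 genes tested, 498 were higher and 884 lower in Wnt1-Cre;pMes-Bmp4. The arch label was checked against markers: Dlx2, Dlx5, Prrx1 and Twist1 were well read in all libraries, while 8 Hox genes of more posterior arches summed to 7.47 and 12.1 normalized reads in Wnt1-Cre;pMes-Bmp4 and 14.1 and 8.23 in wild-type. Hand2, a marker of the distal arch, was low, at 69.3 and 33.9 in Wnt1-Cre;pMes-Bmp4 and 50.4 and 44.2 in wild-type.

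Bmp4, the gene of the transgene, read 2656 and 1745 normalized reads in Wnt1-Cre;pMes-Bmp4, against 682 and 437 in wild-type. Both transgenic libraries lay above both wild-type libraries, and transgenic library 1 was the highest. Its log2 fold change was 1.98 ± 0.27 (SE; limma adjusted p = 0.0211). Reads of the transgene could not be separated from those of the endogenous gene.

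Msx2, which acts with Msx1 in crest mesenchyme and in skull bone growth, read 4807 and 3354 normalized reads in Wnt1-Cre;pMes-Bmp4 and 996 and 1080.0 in wild-type. The groups did not overlap, and the lower transgenic library was still above both wild-type ones by a wide margin. The mean was 4080.2 ± 1028 (SD, n = 2) in Wnt1-Cre;pMes-Bmp4 and 1038 ± 59.2 (SD, n = 2) in wild-type. The log2 fold change was 1.95 ± 0.19 (SE), 3.87-fold with a 95% interval of 2.85 to 5.26, and the limma adjusted p was 0.0182. Among all genes tested it ranked 11 by p and 63 by size of the rise, and 19 by size among the 12411 genes whose mean was 50 or more.

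Msx1, the family member needed for tooth and palate formation, read 4281 and 2722 normalized reads in Wnt1-Cre;pMes-Bmp4 and 1441 and 1609 in wild-type. Again the groups did not overlap, but the 2 transgenic libraries lay far apart. The mean was 3501 ± 1102 (SD, n = 2) in Wnt1-Cre;pMes-Bmp4 and 1525 ± 118 (SD, n = 2) in wild-type. The log2 fold change was 1.16 ± 0.22 (SE), 2.24-fold with a 95% interval of 1.58 to 3.19, and the limma adjusted p was 0.0297. It ranked 513 by p and 402 by size of the rise. In whole arch RNA, more cells expressing an Msx gene and more RNA per cell cannot be told apart.

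Msx3 was at or near 0 in the arch. No read was counted in Wnt1-Cre;pMes-Bmp4 libraries 1 and 2 (0 reads each, which allows up to 3 reads, or 3.2 and 3.64 normalized reads). In wild-type, library 1 had 4 reads, 2.97 normalized, and library 2 had 0, which allows 3.09. These counts do not separate the groups. The gene was below the minimum level for testing, which only 16746 of all 52459 rows reached. Also below it were 9 of 14 markers of the dorsal neural tube, the tissue in which Msx3 is known. Among those markers Olig3 had 0 reads in every library and Wnt3a had reads in wild-type library 1 alone. The 14 markers summed to 936 and 609 normalized reads in Wnt1-Cre;pMes-Bmp4 and 1045 and 820 in wild-type, most of it from Sox2 and Pax6. None of the 5 tested passed (0 higher, 0 lower). The 2 with the smallest p, Sox2 and Lmx1b, had log2 fold changes of -0.63 and -2.39.

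**Figure D1:**
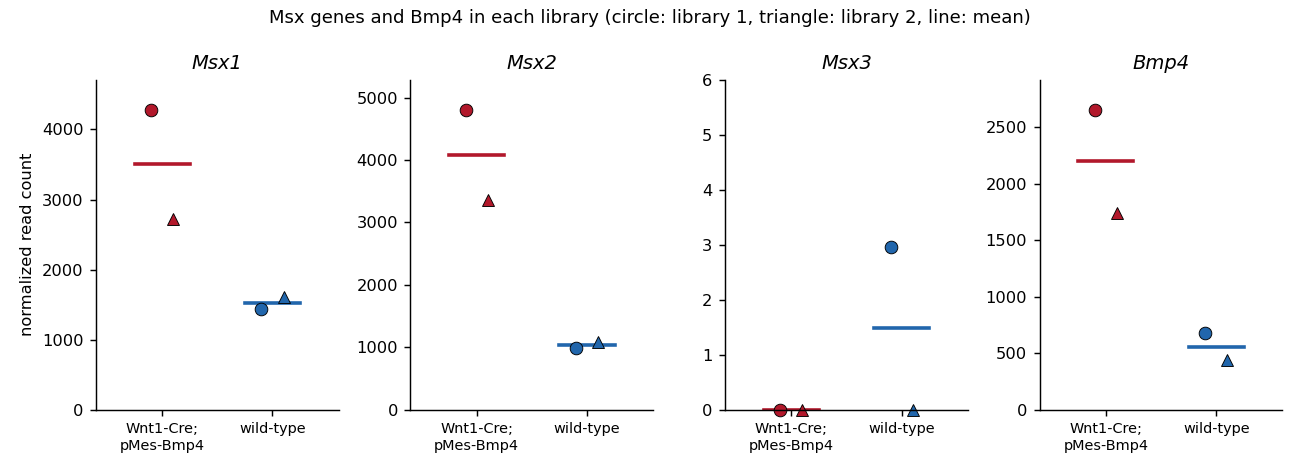
Normalized read counts of Msx1, Msx2, Msx3 and Bmp4 on linear axes that start at 0, each panel with its own scale. Points are libraries and lines are group means; for Msx1, Msx2 and Bmp4 both Wnt1-Cre;pMes-Bmp4 points lie above both wild-type points, while Msx3 has reads in wild-type library 1 alone.

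Thus 2 of the 3 members were tested and both were higher, where 2.97% of all genes tested were higher. Both also had transgenic libraries above both wild-type libraries, as did 30.0% of all genes tested; 59.7% had the groups apart in either direction. Fold changes depended on transcript length in this comparison. The longest transcripts of Msx1, Msx2 and Bmp4 have 1935, 2453 and 2064 bases. Among the 4699 genes with transcripts of 1500 to 3000 bases, a range chosen with earlier results known, 5.32% were higher and 1.45% lower, and their median log2 fold change was 0.19, against 0.02 for all genes tested and -0.51 for the 2063 with transcripts over 6000 bases. After a correction for transcript length, Msx2 had a log2 fold change of 1.75 with a limma adjusted p of 0.0307. Msx1 had 0.94 and a limma adjusted p of 0.0749 and no longer passed, where 0.61% of genes were called higher. With GC content also corrected, both passed, at 1.70 (limma adjusted p = 0.0109) for Msx2 and 1.12 (limma adjusted p = 0.0132) for Msx1.

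**Figure D2:**
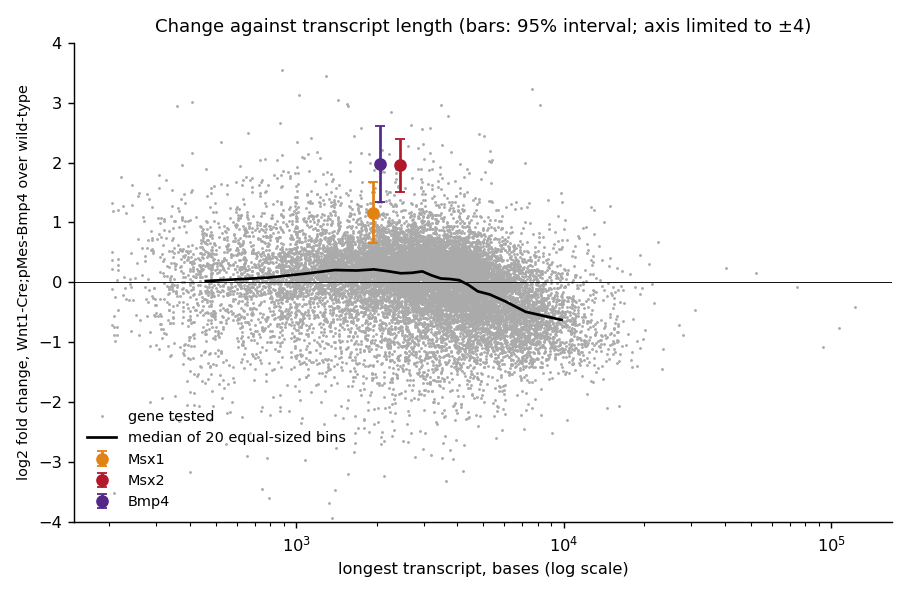
Log2 fold change of each gene tested (grey; 200 bases and more, 6 genes beyond ±4 not shown) against its longest transcript, with the median of 20 equal-sized bins as a line. Msx1, Msx2 and Bmp4 with 95% intervals lie above the line, which is near 0.19 in their length range and below 0 for long transcripts.

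Each library was left out in turn. Without wild-type library 1 the log2 fold changes were 1.89 for Msx2 and 1.09 for Msx1. Without wild-type library 2 they were 2.01 for Msx2 and 1.24 for Msx1. With 1 wild-type library left, the fit assumes that it varies like the transgenic pair. Neither gene passed in these fits, but almost no gene tested did, so the loss is not particular to Msx1 and Msx2. Without transgenic library 1 the log2 fold changes were 1.69 for Msx2 and 0.84 for Msx1, and without transgenic library 2 they were 2.21 for Msx2 and 1.49 for Msx1. With 1 transgenic library left, the spread comes from the close wild-type pair, so that both genes passed there says nothing about the transgenic spread.

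**Figure D3:**
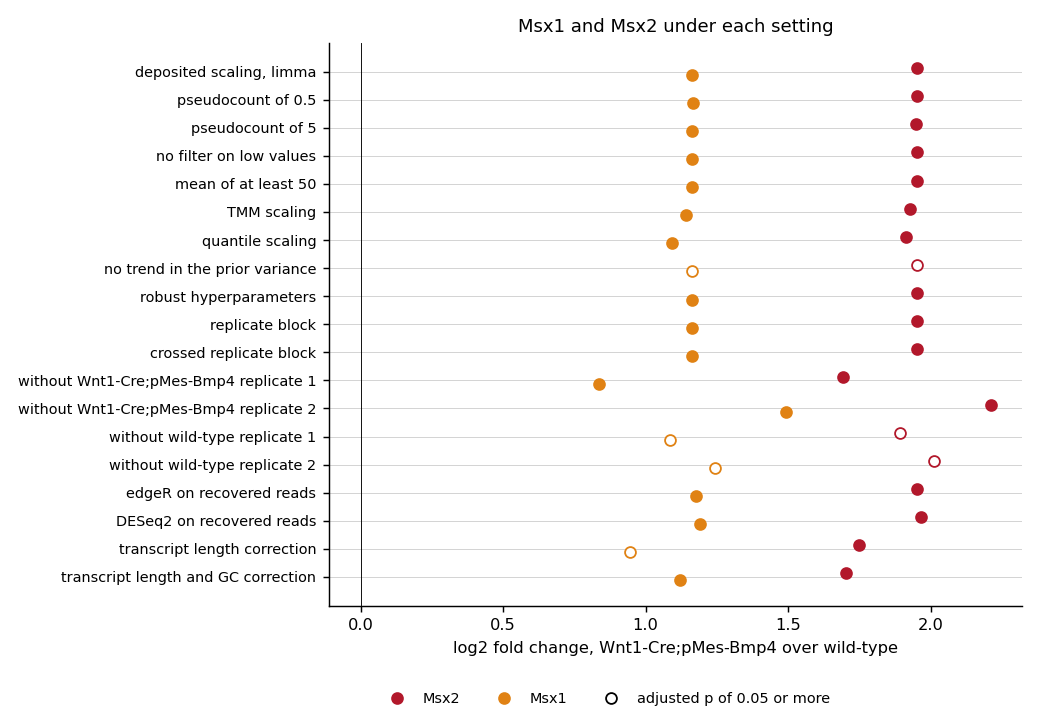
Log2 fold change of Msx2 (red) and Msx1 (orange) under each setting, with open points where the adjusted p was 0.05 or more. Msx2 stays between 1.69 and 2.21 and Msx1 between 0.84 and 1.49, and Msx2 is to the right of Msx1 in every setting.

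The 2 transgenic libraries differed from each other in the same direction for all 3 genes. Library 1 exceeded library 2 by 1.57-fold for Msx1, 1.43-fold for Msx2 and 1.52-fold for Bmp4. Among the 4880 genes whose mean was 1000 or more, the gap between the transgenic libraries was larger than that of Msx1 in 3.83%, than that of Msx2 in 6.84% and than that of Bmp4 in 4.71%. In wild-type the Msx genes and Bmp4 did not go together: library 2 was 1.12-fold above library 1 for Msx1 and 1.08-fold for Msx2, while library 1 was 1.56-fold above library 2 for Bmp4. The Msx gaps were ordinary in size. Among the same 4880 genes the wild-type gap was larger than that of Msx1 in 38.1% and than that of Msx2 in 52.7%. It was larger than that of Bmp4 in 0.738%. Msx2 reads per Bmp4 read were thus 1.81 and 1.92 in Wnt1-Cre;pMes-Bmp4, against 1.46 and 2.47 in wild-type, and the groups overlapped (exact two-sided permutation p = 1). Msx1 reads per Bmp4 read were 1.61 and 1.56 in Wnt1-Cre;pMes-Bmp4, against 2.11 and 3.68 in wild-type, without overlap (exact two-sided permutation p = 0.333, the smallest that 2 against 2 libraries can give).

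The balance between the members also differed between the groups. There were 1.12 and 1.23 Msx2 reads per Msx1 read in Wnt1-Cre;pMes-Bmp4, against 0.691 and 0.671 in wild-type. The 2 libraries of each group were close, and the groups did not overlap. The log2 ratio was higher by 0.79 in Wnt1-Cre;pMes-Bmp4, a 1.73-fold shift toward Msx2 (exact two-sided permutation p = 0.333, the smallest possible). The difference in log2 fold change between Msx2 and Msx1 was 0.72 to 0.85 when any library was left out, 0.80 after the length correction and 0.58 with GC content also corrected.

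Levels of different genes were compared per kilobase of the longest transcript. Msx1 had 2212 and 1407 normalized reads per kb in Wnt1-Cre;pMes-Bmp4 and 745 and 831 in wild-type. Msx2 had 1960 and 1367 normalized reads per kb in Wnt1-Cre;pMes-Bmp4 and 406 and 440.3 in wild-type. By this length Msx1 was above Msx2 in every library, with ranges that overlapped in transgenic arches and did not in wild-type. Per kb of merged exons, a length added after seeing the data, the order turned in transgenic arches, with 1382 and 879 for Msx1 and 1466 and 1023 for Msx2, while in wild-type Msx1 (465 and 519) stayed above Msx2 (304 and 329). The order of the pair in transgenic arches was thus not settled. Msx3 was last, at 0 in all libraries but wild-type library 1, where it had 1.26 normalized reads per kb. Of the level per kb of the longest transcript summed over the family, Msx2 made up 47.0% and 49.3% in Wnt1-Cre;pMes-Bmp4, against 35.2% and 34.6% in wild-type. Per kb of merged exons its share was 51.5% and 53.8% in Wnt1-Cre;pMes-Bmp4, against 39.4% and 38.8% in wild-type. The 3 genes together took 0.0271% and 0.0169% of all reads in Wnt1-Cre;pMes-Bmp4, against 0.00688% and 0.00774% in wild-type. By group mean per kb of the longest transcript among 16225 genes, Msx1 ranked 1582 in Wnt1-Cre;pMes-Bmp4 and 2643 in wild-type, and Msx2 ranked 1689 in Wnt1-Cre;pMes-Bmp4 and 3968 in wild-type.

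Msx genes belong to the NKL class of homeobox genes, with the Dlx, Barx, Nkx, Hmx, Tlx and Emx genes. By group mean per kb of the longest transcript over 34 NKL genes with the Msx genes included, Msx1 was in place 1 and Msx2 in place 2 in Wnt1-Cre;pMes-Bmp4. In wild-type they were in places 4 and 5, below Barx1, Dlx2 and Dlx5. Per kb of merged exons Msx2 was in place 1 and Msx1 in place 3 in Wnt1-Cre;pMes-Bmp4, with Dlx2 between them, and the wild-type places were again 4 for Msx1 and 5 for Msx2. Of the other 31, 19 were tested: 1 was higher and 5 were lower, with a median log2 fold change of -0.36. Across all genes 5.28% were lower. Barx1, which marks proximal arch mesenchyme where molars form, read 1617 and 695 normalized reads in Wnt1-Cre;pMes-Bmp4 and 3507 and 6853 in wild-type (log2 fold change -2.21, limma adjusted p = 0.0321). Dlx4 and Dlx3, distal-less genes of the lower arch, had log2 fold changes of -1.86 and -0.97 (limma adjusted p = 0.0286 and 0.0423). Emx1, known from forebrain, had 45.9 and 24.2 normalized reads in Wnt1-Cre;pMes-Bmp4, against 122 and 145 in wild-type (limma adjusted p = 0.0343). Its relative Emx2 had 0 and 2.42 normalized reads in Wnt1-Cre;pMes-Bmp4, against 25.2 and 88.5 in wild-type (limma adjusted p = 0.0343). Both were lower in each transgenic library than in either wild-type library. Nkx2-6, a gene of pharyngeal endoderm, was the 1 that rose, with 96.0 and 74.0 normalized reads in Wnt1-Cre;pMes-Bmp4 and 20.03 and 11.3 in wild-type (log2 fold change 2.41, limma adjusted p = 0.0301). After the length correction, which called 99 genes higher and 150 lower of 16225, 0 of the 19 were higher and 1, Dlx4, was lower. The folds of the others stayed about as large, at 2.22 for Nkx2-6, -2.41 for Barx1, -2.18 for Emx1, -4.87 for Emx2 and -1.16 for Dlx3 on the log2 scale, with limma adjusted p values of 0.0502 to 0.0563. With 1 wild-type library left out, almost no gene tested passed, so the NKL calls could not be checked that way.

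**Figure D4:**
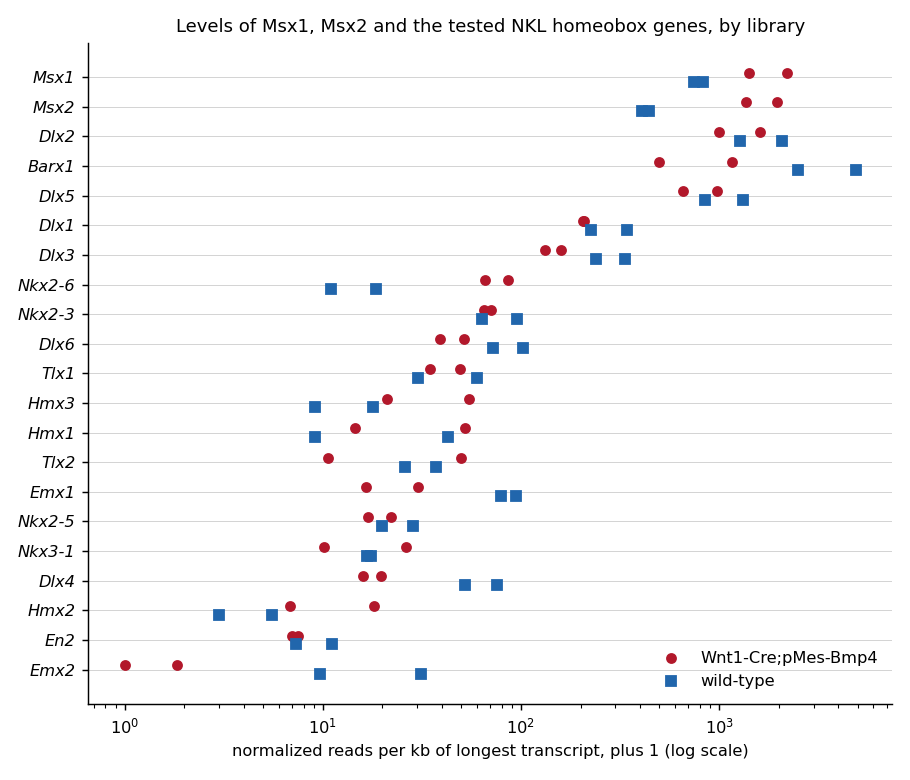
Normalized reads per kb of the longest transcript, plus 1, on a log axis, for Msx1, Msx2 and the 19 other NKL genes tested, ordered by the transgenic mean. Circles are Wnt1-Cre;pMes-Bmp4 libraries and squares are wild-type libraries; Msx1 and Msx2 are at the top in transgenic arches by this length, while Barx1 is at the top in wild-type.

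Most genes that carry the BMP signal did not pass the test, like most genes tested. Of 15 ligands, receptors and SMADs tested, 1 was higher and 2 were lower, with a median log2 fold change of -0.17. Of all genes tested 2.97% were higher and 5.28% lower. The riser was Bmp4 itself, the gene of the transgene. Bmpr2, the type II BMP receptor, read 245 and 313 normalized reads in Wnt1-Cre;pMes-Bmp4 and 816 and 942 in wild-type, with a log2 fold change of -1.66 (limma adjusted p = 0.0194). Smad5, a signal transducer, read 1128 and 1120.3 in Wnt1-Cre;pMes-Bmp4 and 2069 and 2390.3 in wild-type, with a log2 fold change of -0.98 (limma adjusted p = 0.0218). Both had lower values in both transgenic libraries, and neither passed after the length correction, with log2 fold changes of -0.96 for Bmpr2 (limma adjusted p = 0.0579) and -0.60 for Smad5 (limma adjusted p = 0.064). With GC content also corrected, 3 of the 15 were lower, as were 746 of 16225 genes.

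Several other BMP response genes were also higher. Of 17 tested, 6 were higher and 0 lower, where 2.97% of all genes tested were higher and 5.28% lower. The median log2 fold change of the 17 was 0.60. Of the 17, 13 had a positive log2 fold change, as did 51.3% of all genes tested. The other 4, among the 11 that did not pass, were Smad7 (-0.20), Nog (-0.07), Tbx2 (-0.28) and Tbx3 (-0.52). After the length correction 4 of the 17 were higher, where 0.61% of genes were called higher. With 1 wild-type library left out, almost no gene tested passed, so these calls could not be checked that way. The BMP pseudoreceptor gene Bambi, whose protein dampens the pathway, was higher, with 6896 and 6016 normalized reads in Wnt1-Cre;pMes-Bmp4, against 1972 and 1650 in wild-type (log2 fold change 1.84, limma adjusted p = 0.0182). Gata3, a zinc finger factor of the distal arch, had a log2 fold change of 1.56 (limma adjusted p = 0.0233). The Id genes, which code for inhibitors of basic helix-loop-helix factors, had log2 fold changes of 0.60 (Id1), 0.98 (Id2), 0.75 (Id3) and 1.08 (Id4), and each passed. After the length correction Id2 and Id4 passed. Id1 had 0.41 (limma adjusted p = 0.22) and Id3 had 0.55 (limma adjusted p = 0.202), and neither passed. Differences in fold change between these genes and the Msx genes were not tested.

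**Figure D5:**
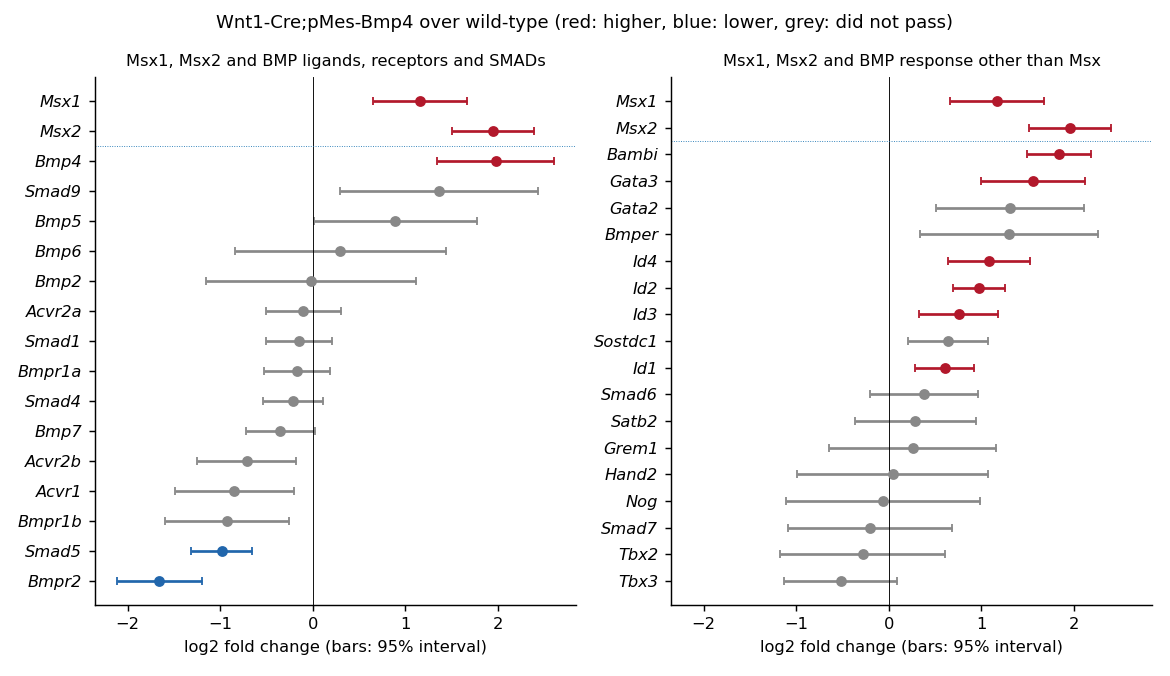
Log2 fold change with 95% intervals for Msx1 and Msx2 (top of each panel) beside the BMP ligands, receptors and SMADs (left) and other BMP response genes (right), ordered by value. On the left Bmp4 is the 1 gene in red with Msx1 and Msx2 and Bmpr2 and Smad5 are in blue; on the right 6 genes are in red and none (0) in blue.

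Genes reported to need Msx1 in the mouse tooth bud or palate were read at this earlier stage. Of 8 tested, 1 was higher and 2 were lower, where 2.97% of all genes tested were higher and 5.28% lower. The median log2 fold change of the 8 was -0.23. The higher gene was Bmp4, whose transgene reads could not be separated from those of the endogenous gene. The hedgehog receptor Ptch1 and the cyclin Ccnd1 had log2 fold changes of -1.14 and -0.89 (limma adjusted p = 0.0233 and 0.0321). After the length correction they had -0.53 (limma adjusted p = 0.146) for Ptch1 and -0.90 (limma adjusted p = 0.0484) for Ccnd1. Of the members that did not pass, the WNT effector Lef1, the proteoglycan Sdc1 and the homeobox gene Dlx2 had log2 fold changes of -0.11, -0.03 and -0.36. Fgf3 and Shh were below the minimum level.

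Of 11 genes whose proteins are reported to bind Msx proteins, 0 were higher and 2 were lower, where 5.28% of all genes tested were lower, with a median log2 fold change of -0.39. The histone methyltransferase gene Ehmt2 read 1482 and 1159 normalized reads in Wnt1-Cre;pMes-Bmp4 and 2027 and 2466 in wild-type (log2 fold change -0.77, limma adjusted p = 0.0443). The linker histone gene Hist1h1b had a log2 fold change of -1.08 (limma adjusted p = 0.0484). Neither passed after the length correction. Ehmt2 then had a log2 fold change of -0.73 (limma adjusted p = 0.0629) and Hist1h1b -1.21 (limma adjusted p = 0.0999). Tbp, the TATA-binding protein gene, was higher after the length correction (log2 fold change 0.99, limma adjusted p = 0.0371). In the main test Tbp had 0.30 and did not pass (limma adjusted p = 0.2). The correction took its length as 12794 bases, that of its longest transcript. The corrected count was thus 1 higher and 0 lower, where 0.61% of genes were called higher, and the 1 depends on that length. The tooth factor Pax9 and the crest factor Pax3, which did not pass, had log2 fold changes of 0.40 and -0.39.

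Of 10 tested factors that act beside Msx genes at the neural plate border and in early crest, 0 were higher and 2 lower, where 5.28% of all genes tested were lower. Of the 10, 8 had negative values, with a median log2 fold change of -0.69. Tfap2a read 295 and 238 normalized reads in Wnt1-Cre;pMes-Bmp4 and 536 and 576 in wild-type (log2 fold change -1.06, limma adjusted p = 0.0289). Myc had a log2 fold change of -0.74 (limma adjusted p = 0.0484). Tfap2a also passed after the length correction, at a log2 fold change of -1.12 (limma adjusted p = 0.0397). Myc had -0.95 after that correction and did not pass (limma adjusted p = 0.0519). Snai2 and Snai1 had positive values, 0.43 and 0.39, and did not pass.

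By distance between centred log2 profiles over the 4 libraries, the genes most like Msx1 among 10920 whose mean was 50 or more were Wfikkn1, Entpd1, Rhbdl3, Prrx2 and Rprm, at distances of 0.18 to 0.26. Prrx2, a homeobox gene of craniofacial mesenchyme, had 15751 and 11812 normalized reads in Wnt1-Cre;pMes-Bmp4 and 6664 and 6995 in wild-type. Those most like Msx2 were Rxfp1, Bambi, Dpep1, Dok5 and Pld4, at distances of 0.35 to 0.51. Bmp4 was in place 7 and Msx1 in place 20 for Msx2, while for Msx1 Msx2 was in place 667 and Bmp4 in place 2335. These places rest on 4 libraries and describe them alone.

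No tested genomic neighbour of Msx2 passed. Of 17 genes within 500 kb of its start, 6 were in the deposited table and 4 were tested. Of these 0 were higher and 0 lower. All 4 lie on the same side of Msx2, and no gene on its other side was tested. The nearest, Gm2762 at 79.4 kb, had a log2 fold change of 0.77 and a limma adjusted p of 0.399. Around Msx1, 7 genes were tested and 1 was higher, where 2.97% of all genes tested were higher. This was Stx18, a syntaxin of the endoplasmic reticulum and the nearest tested gene on its side at 214 kb, with 1119 normalized reads in Wnt1-Cre;pMes-Bmp4 and 594 in wild-type on average (log2 fold change 0.92, limma adjusted p = 0.0322). On the other side the nearest, Evc2 at 486 kb, had a log2 fold change of -0.26. Around Msx3, 11 were tested and 2 were higher, Tubgcp2 at 12.4 kb and Echs1 at 67.4 kb, with log2 fold changes of 0.60 and 0.63 (limma adjusted p = 0.0456 and 0.0391); Caly, the nearest on the other side at 33.5 kb, had 0.27. None (0) of the 3 passed after the length correction. Stx18 then had a log2 fold change of 0.78 (limma adjusted p = 0.0672) and Tubgcp2 0.51 (limma adjusted p = 0.0882). Echs1 had 0.69 (limma adjusted p = 0.064).

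Some markers of cell types in the arch passed the test, where 2.97% of all genes tested were higher and 5.28% lower. Of 11 epithelial markers tested, 2 were higher, Krt18 and Krt14 (log2 fold changes 0.87 and 0.98, limma adjusted p = 0.0309 and 0.0433), and 9 did not pass. The 12 epithelial markers summed to 39210.3 and 36394 normalized reads in Wnt1-Cre;pMes-Bmp4 and 30336 and 23484 in wild-type; Krt5 had 0 reads in transgenic library 1 and wild-type library 2. Of 12 crest mesenchyme markers 1 was higher (Prrx2, log2 fold change 1.00) and 1 lower (Barx1). Log2 fold changes were positive for 3 of the 12 and negative for 9, with a median of -0.35. Of all genes tested 51.3% had a positive one. The 12 summed to 33690.1 and 25236 normalized reads in Wnt1-Cre;pMes-Bmp4 and 26183 and 35995 in wild-type, which overlap. Prrx2 made up 15751 and 11812 of these in Wnt1-Cre;pMes-Bmp4, against 6664 and 6995 in wild-type. Of 8 endothelial markers 0 were higher or lower; the 2 with the smallest p, Emcn and Pecam1, had log2 fold changes of 0.59 and 0.68 (limma adjusted p = 0.0583 and 0.0883), and the list summed to 5549 and 5785 in Wnt1-Cre;pMes-Bmp4 and 4470 and 4531 in wild-type. Of 8 red blood cell markers 3 were lower, Hbb-y, Slc4a1 and Hba-x (log2 fold changes -0.99, -1.10 and -0.81), with sums of 341087 and 381134 in Wnt1-Cre;pMes-Bmp4 and 674642 and 613763 in wild-type. None (0) of these markers passed after the length correction, where 0.61% of genes were called higher. Limma adjusted p values were 0.078 for Krt18, 0.0983 for Krt14, 0.0796 for Prrx2 and 0.0519 for Barx1. They were 0.0519 for Hbb-y, 0.0504 for Slc4a1 and 0.0502 for Hba-x. Corrected log2 fold changes were 0.66 for Krt18, 0.76 for Krt14, 0.79 for Prrx2 and -2.41 for Barx1. For the red blood cell genes they were -1.09 (Hbb-y), -0.96 (Slc4a1) and -0.96 (Hba-x), about as large as before. The part of these differences in the Msx values was not tested.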

How the data were processed

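RNA of 4 libraries was polyA-selected, fragmented and primed with random hexamers, per the labels. The deposited table holds one signal value per gene and library, made by the authors from featureCounts counts, per the file headers; the values show a division by 1 size factor per library. The tool fastp 0.21.0 and the mm10 build are named in the submitters' processing notes. Aligner, annotation release and strand setting: not given in the sources used here. Whole reads were recovered from the step of each column for 100% of values (within 0.01), and the factors equalled median-of-ratios factors.

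The main test was limma 3.58.1 (R 4.3.3) with a trended prior on log2(value + 1), for 16746 genes with a mean of at least 10, two-sided, Benjamini-Hochberg adjusted, threshold 0.05; fold changes are Wnt1-Cre;pMes-Bmp4 over wild-type on that scale, which understates low genes. It had 2 residual and 5.26 prior degrees of freedom. Steps were tested on simulated data. Alternatives were other pseudocounts, filters, scalings, priors, leaving out each library, a block for the replicate number, count tests of the recovered reads (edgeR 4.0.16, DESeq2 1.42.0), and a spline (4 degrees of freedom, fitted on genes with a mean of 50 or more) on transcript length, or length and GC. The edgeR test called 409 higher and 915 lower. Lengths were those of the longest transcript in GENCODE M21, with merged exons as an alternative added after seeing the data, and covered 96.9% of genes tested.

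The members, lists and alternatives were chosen with earlier results of these data known. Named genes were the members, Bmp4, at most 6 members past the threshold by smallest p from each list (or the 2 with the smallest p), the 5 genes most like Msx1 and Msx2, leaving out predicted genes and pseudogenes, and the nearest neighbours tested. Other names, such as Dlx2, Dlx5, Prrx1, Twist1, Hand2, Lef1, Sdc1, Pax3, Pax9, Snai1, Snai2, Olig3, Wnt3a, Pax6, Krt5, Fgf3, Shh, Echs1, Smad7, Nog, Tbx2, Tbx3 and Tbp, were chosen after their values were seen. Plots used matplotlib 3.10.9 (Python 3.11.15).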

Additional observations from a re-analysis of the deposited data

How the results depend on the processing

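Msx1, Msx2 and Bmp4 had positive log2 fold changes under all 18 alternatives, with that of Msx2 above that of Msx1 in each. With no trend in the prior variance their log2 fold changes were 1.16, 1.95 and 1.98 and none passed (limma adjusted p = 0.161, 0.145 and 0.145); the cause was not tested. After the length correction Msx1 was at 0.94 (limma adjusted p = 0.0749). With each library left out, log2 fold changes ran from 0.84 to 1.49 for Msx1 and 1.69 to 2.21 for Msx2. Those of Bmp4 ran from 1.66 to 2.30. With 1 wild-type library left out none of these genes passed, but almost no gene tested did.

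Counts of genes called moved widely. They ran from 0 to 2675 higher and 0 to 2719 lower when a library was left out (3185 and 1806 genes at an unadjusted p under 0.05 without wild-type library 1 and 2). They were 0 and 0 without the trend (3925 at an unadjusted p under 0.05), 809 higher with robust hyperparameters, 1284 higher and 1582 lower in DESeq2, and 99 higher and 150.0 lower after the length correction. The labels name no pairing of libraries across groups beyond the number. Deviations of same-numbered libraries had a correlation of -0.266 over 12411 genes. The replicate block gave 165 higher and 543 lower, and a crossed pairing, added after seeing the data, 1763 higher and 1952 lower. Msx1 and Msx2 passed under the block (limma adjusted p = 0.0198 and 0.0021). With no filter Msx3 had a log2 fold change of -0.99 and a limma adjusted p of 0.679, set by 4 reads. Depth did not limit Msx1 or Msx2, which had 1050 reads or more in each library. The number of lower calls moved by over 1.5 times in 11 of 18 alternatives for the Msx partner list, 9 for the plate border list and 15 for the mesenchyme list, and that of higher calls in 11 for the epithelial list. Intervals and limits for counts cover counting error only.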
